A study of Mus musculus with 4 samples.

Results

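Lef1, its TCF relatives, beta-catenin and the feedback inhibitors of the WNT pathway were examined in dermal papilla cells of the mouse hair follicle. The genes were given as a list of 10: Lef1, Tcf7, Tcf7l1, Tcf7l2, Ctnnb1, Axin1, Axin2, Nkd1, Nkd2 and Apcdd1. A gene counted as measured where a probe set named it and no other gene, and this held for 9 of the 10, each with 1 probe set, among 19938 genes and 28853 probe sets in all. Tcf7 was not analysed here. The cells were sorted at postnatal day 5 by flow cytometry from skin, as cells positive for both a Sox2-driven green fluorescent protein (Sox2GFP) and integrin alpha 9. They came from animals labelled Sox2 Het (heterozygous) or Sox2 cKO (conditional knockout), with 2 arrays per group labelled as biological replicates 1 and 2. All 4 arrays therefore hold cells sorted for the Sox2GFP reporter. Not given in the sources used here are the Cre driver, the alleles beyond these names, the strain and the number of animals per array. The labels call the replicates biological without saying how the animals were divided among the arrays. The p-values thus speak only of the spread among these 4 arrays.

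In WNT signalling without ligand, a destruction complex built on the scaffold proteins AXIN1, AXIN2 and APC marks beta-catenin (the product of Ctnnb1) for degradation. A WNT signal, relayed by Dishevelled proteins, stops this, and beta-catenin enters the nucleus, where it binds the DNA-binding factors LEF1, TCF7, TCF7L1 and TCF7L2 and switches on target genes. Several targets, Axin2, Nkd1, Nkd2 and Apcdd1 among them, encode inhibitors that damp the signal again. Because the signal switches them on, such targets are used as readouts of it. In the hair follicle, beta-catenin activity in the dermal papilla is known to be required for hair growth, and LEF1 is known from papilla cells as well as from the hair matrix.

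Lef1 has several transcription starts in RefSeq, and the windows before the first and the last of them are shown because the single Lef1 probe set gives 1 value, which does not tell transcripts from different starts apart. Both windows cover the 250 bases before a start on the plus strand of GRCm38.p6. Capitals mark the TCF/LEF core motif CTTTGA, searched on both strands (TCAAAG is its reverse complement). The first lies at chr3:131110047-131110296 and holds no match, and the second at chr3:131156044-131156293, with its start 45997 bases downstream of the first start, inside the RefSeq span of the gene, and holds 2 matches. Whether it is exonic or intronic was not determined here.
Lef1, most upstream start: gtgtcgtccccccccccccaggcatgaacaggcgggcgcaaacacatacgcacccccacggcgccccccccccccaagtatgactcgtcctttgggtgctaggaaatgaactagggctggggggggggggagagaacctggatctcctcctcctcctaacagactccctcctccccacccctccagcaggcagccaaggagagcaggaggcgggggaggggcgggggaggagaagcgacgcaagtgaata
Lef1, most downstream start: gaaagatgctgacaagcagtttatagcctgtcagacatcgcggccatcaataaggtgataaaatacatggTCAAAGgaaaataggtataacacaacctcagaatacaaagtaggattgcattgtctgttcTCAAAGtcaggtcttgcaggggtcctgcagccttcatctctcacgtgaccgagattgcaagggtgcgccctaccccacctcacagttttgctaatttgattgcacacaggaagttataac
The 2 matches lay on the opposite strand, at 180 to 175 and 120 to 115 bases before the start. Of all 32851 RefSeq windows of 300 bases (250 before and 50 after a start), 16.0% held this motif. Windows were listed for 8 of the 10 members, not for Axin1 and Apcdd1, and 1 of their 14 windows held it, the downstream Lef1 window. A SOX core motif, AACAAT on either strand, was in 10.7% of all windows and in 1 of the 14, that of the first Tcf7l2 start. The matches of the 2 motifs thus lay in different windows and did not overlap. A match describes the letters only and is not evidence of binding.

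The arrays hold differences and no levels, because every row of the deposited table is centred so that the median of its 4 values is 0. A value of 0 is thus the midpoint of the 2 middle arrays, and no gene can be called present, absent or more abundant than another, which also means that the labelled cell type could not be checked by marker levels. Over all probe sets the medians of the arrays lay between -0.00366 and 0.00430, and the SD of the values was 0.138 and 0.107 in the Het arrays and 0.112 and 0.158 in the cKO arrays. The SD of the difference between arrays was 0.188 for the Het pair and 0.213 for the cKO pair. Between the groups it ran from 0.184 to 0.257. By this measure cKO replicate 1 was nearer to Het replicate 1 (0.188) and Het replicate 2 (0.184) than to cKO replicate 2. Sox2 was at 0.96 in Het replicate 1 and 0.87 in Het replicate 2, and at -0.87 in cKO replicate 1 and -0.94 in cKO replicate 2. The log2 difference of cKO from Het was -1.81 ± 0.06 (SE of the limma fit with 2 arrays in each group), with an adjusted p of 0.345 over all genes. Xist, the RNA of the silenced X chromosome of female cells, was at -4.08 and -0.85 in Het and at 0.85 and 1.23 in cKO. Lower values in cKO were found for Y-linked Eif2s3y (-1.81), Kdm5d (-0.75) and Uty (-0.59), each with both cKO arrays below both Het arrays. Sex-linked genes thus moved with the groups. In these 4 arrays a difference in the sex of the animals and the Sox2 genotype cannot be told apart, and this holds for all results below. Precision is limited throughout by having 4 arrays.

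The comparison of cKO with Het sets side by side groups of papilla cells that differ in Sox2 genotype and also in sex-linked genes. Of the 9 members, 0 passed (limma, Benjamini-Hochberg over all genes, threshold 0.05), and 0 had an unadjusted p under 0.05. With the replicate number as a block, which cannot move a difference in this balanced layout, the unadjusted p was 0.0127 for Tcf7l1 and 0.0350 for Tcf7l2, and neither passed (limma, adjusted p = 0.514 and 0.583). Those 2 are to be read against 1625 of 19938 genes with an unadjusted p under 0.05 in the fit with the block. Without the block, 0 of all 19938 genes passed (0% called), and 1053 had an unadjusted p under 0.05, which is 5.28%. Array by array, Lef1 and Apcdd1 were higher in both cKO arrays than in both Het arrays, which is 2 of 9 members against 17.8% of all genes. Tcf7l1, Tcf7l2 and Nkd2 were lower in both cKO arrays, 3 of 9 members against 15.6% of all genes. In the other 4 members the groups overlapped. With 2 arrays against 2, an exact two-sided permutation test of a single gene cannot go below 0.333. In sorted cells measured in bulk, fewer cells of a type and less RNA per cell cannot be told apart.

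**Figure D1:**
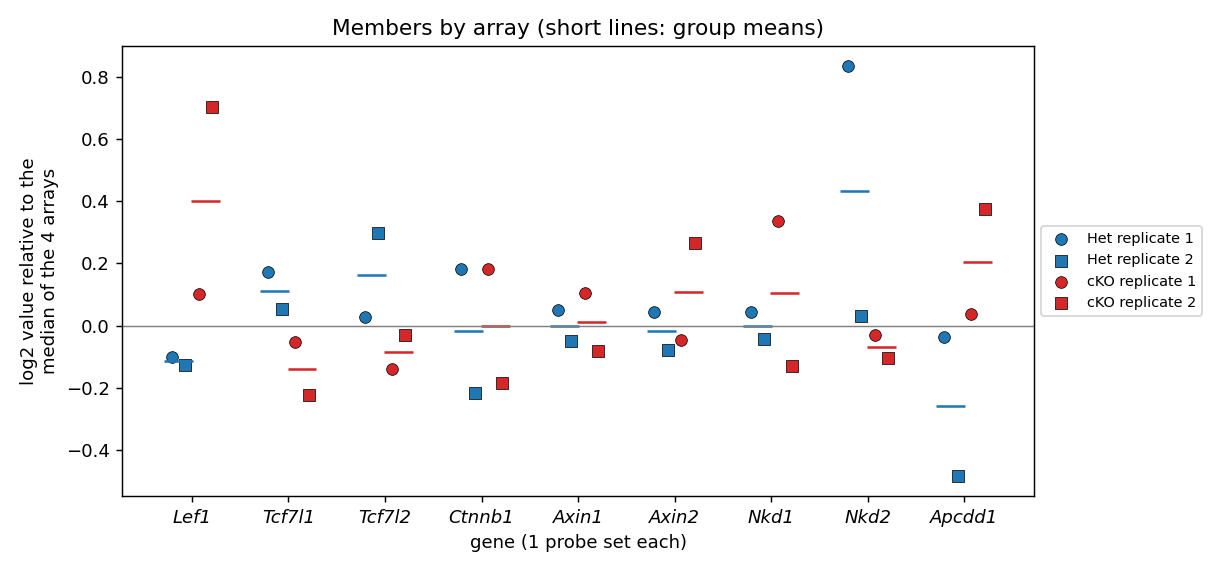
Log2 values of the 9 measured members in each array, relative to the median of the 4 arrays; blue points are the Het arrays, red points the cKO arrays, circles replicate 1, squares replicate 2, and short lines the group means. Lef1 reaches 0.70 in cKO replicate 2 and Nkd2 0.83 in Het replicate 1, while in both genes the other array of the same group lies closer to the opposite group than to its partner.

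Among the DNA-binding factors, Lef1 had a higher value in cKO and its relatives Tcf7l1 and Tcf7l2 lower values, and none of the 3 passed the test. Lef1, which mostly acts as an activator with beta-catenin, was at -0.10 in Het replicate 1 and -0.12 in Het replicate 2, against 0.10 in cKO replicate 1 and 0.70 in cKO replicate 2. Below, values are given in this order of replicates. The Het arrays were close together, and the height of cKO came mainly from replicate 2. The log2 difference of cKO from Het was 0.51 ± 0.23 (SE, n = 2 arrays in each group, as for every gene below), or 1.43-fold, with a 95% interval from -0.16 to 1.18 (limma, adjusted p = 0.958). It was smaller than the gap of 0.60 between the cKO arrays. It was 0.21 without cKO replicate 2 and 0.81 without cKO replicate 1. Of all genes, 99.0% had a smaller absolute difference and 98.1% a smaller SD over the 4 arrays. That SD includes the difference between the groups, so these 2 shares are not independent. Within the groups the SD of Lef1 was 0.02 in Het and 0.42 in cKO.

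Tcf7l1, whose product is best known as a repressor of WNT targets when beta-catenin is absent, stood at 0.17 and 0.05 in Het and at -0.05 and -0.22 in cKO. The groups did not overlap, although Het replicate 2 and cKO replicate 1 lay 0.11 apart. The log2 difference was -0.25 ± 0.09, with a 95% interval from -0.50 to 0.00027 (limma, unadjusted p = 0.0501, adjusted p = 0.937). Tcf7l1 had the smallest unadjusted p of the members. Without cKO replicate 2 the difference shrank to -0.17.

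Tcf7l2, which can act as activator or repressor, stood at 0.03 and 0.30 in Het and at -0.14 and -0.03 in cKO. Het replicate 2 was the highest array, and Het replicate 1 lay only 0.06 above cKO replicate 2. The log2 difference was -0.25 ± 0.11, with a 95% interval from -0.58 to 0.09 (limma, adjusted p = 0.958). It was -0.38 without Het replicate 1 and -0.11 without Het replicate 2. For both genes the direction held without any single array.

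Ctnnb1 and Axin1 showed values that differed more within groups than between them. Ctnnb1, the gene of beta-catenin itself, stood at 0.18 and -0.22 in Het and at 0.18 and -0.18 in cKO. Replicate 1 was the higher array in both groups, by 0.40 in Het and 0.37 in cKO. The difference between the groups was 0.02 ± 0.21, with a 95% interval from -0.59 to 0.62 (limma, adjusted p = 1). The interval is wide enough to hold a 1.5-fold difference either way.

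Axin1, the constitutive scaffold of the destruction complex, stood at 0.05 and -0.05 in Het and at 0.11 and -0.08 in cKO. The difference was 0.01 ± 0.09 with a 95% interval from -0.24 to 0.27 (limma, adjusted p = 1). Here too replicate 1 was the higher array in both groups. Both genes took either sign when single arrays were left out.

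**Figure D2:**
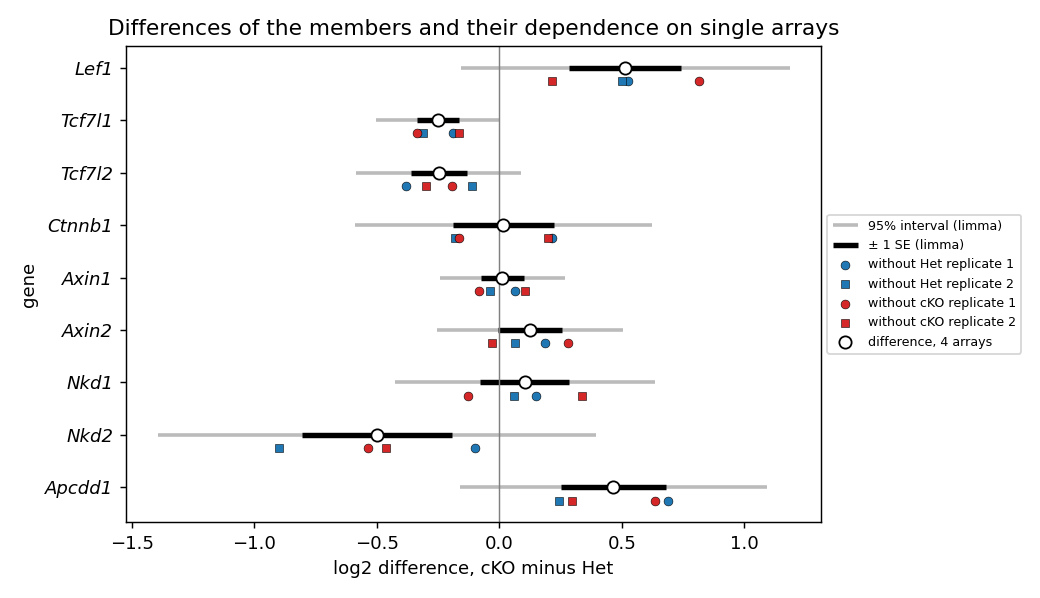
Log2 differences, cKO minus Het, of the 9 members: open circles from all 4 arrays, black bars ± 1 SE and grey bars the 95% interval of the limma fit; the small symbols under each bar give the difference with 1 array left out. All 9 intervals include 0 (that of Tcf7l1 ends at 0.00027), and the differences of Lef1, Nkd2 and Apcdd1 lie between 0.47 and 0.51 in size.

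The feedback inhibitors went in different directions. Axin2, the inducible relative of Axin1 and the most widely used readout of beta-catenin activity, stood at 0.04 and -0.08 in Het and at -0.04 and 0.26 in cKO. Cells of cKO replicate 2 had the highest value and those of cKO replicate 1 a value between the Het arrays. The log2 difference was 0.13 ± 0.13, with a 95% interval from -0.25 to 0.51 (limma, adjusted p = 0.991). Without cKO replicate 2 it was -0.03.

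Apcdd1 encodes a membrane protein that binds WNT ligands and their receptors and inhibits the pathway at the cell surface; mutations of the human gene cause a hereditary loss of hair. It stood at -0.04 and -0.48 in Het and at 0.04 and 0.38 in cKO. The groups did not overlap, but Het replicate 1 and cKO replicate 1 lay 0.07 apart, and the separation came from Het replicate 2 and cKO replicate 2. The log2 difference was 0.47 ± 0.21, or 1.38-fold, with a 95% interval from -0.16 to 1.09 (limma, adjusted p = 0.958). It was 0.24 without Het replicate 2 and 0.30 without cKO replicate 2.

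Nkd1 and Nkd2 encode the naked cuticle proteins, which bind Dishevelled and dampen WNT signals. Nkd1 stood at 0.04 and -0.04 in Het and at 0.34 and -0.13 in cKO, so that the 2 cKO arrays lay on either side of both Het arrays. Its difference was 0.10 ± 0.18, with a 95% interval from -0.43 to 0.64 (limma, adjusted p = 0.996), and it was -0.13 without cKO replicate 1.

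Nkd2 stood at 0.83 and 0.03 in Het and at -0.03 and -0.11 in cKO. Het replicate 1 was far above the other 3 arrays, which lay between -0.11 and 0.03. The log2 difference was -0.50 ± 0.31, or 1.41-fold lower, with a 95% interval from -1.40 to 0.40 (limma, adjusted p = 0.982). Without Het replicate 1 it shrank to -0.10, and without Het replicate 2 it was -0.90. The paralogs Nkd1 and Nkd2 thus had differences of opposite sign, each resting mainly on 1 array; the difference between them was not tested.

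Ordered by the size of the difference, the members ran from Lef1, Nkd2 and Apcdd1 through Tcf7l1 and Tcf7l2 to Axin2, Nkd1, Ctnnb1 and Axin1. Neighbours in this order differed in size by less than the standard error of either gene, except Apcdd1 from Tcf7l1 and Tcf7l2 from Axin2. Among the 5 members without overlap, the difference was larger than the gap within either group in Tcf7l1 and Apcdd1 only. In Lef1 it was smaller than the gap between the cKO arrays, and in Tcf7l2 and Nkd2 smaller than the gap between the Het arrays. The median difference over the 9 members was 0.02, against 0.00339 over all genes, while the median absolute difference was 0.25 against 0.05 over all genes. Ctnnb1 and Axin1 lay below that median size of the table, which includes quiet probe sets that could not be filtered out.

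Axin2 and Apcdd1 were the members closest to Lef1 in their values over the 4 arrays. The root mean square distance from Lef1 was 0.24 for Axin2 and 0.25 for Apcdd1, and 1.48% and 1.57% of all genes were nearer than these. All 3 had their highest value in cKO replicate 2. Nkd2 was the farthest member, at 0.63. In the whole table the 5 nearest genes were Ogt, an enzyme gene for protein glycosylation, at 0.03, Dnajb4, a heat shock cochaperone gene, at 0.04, Clk1, a splicing kinase gene, at 0.07, the ligand gene Bmp2 at 0.07 and the transporter gene Abca8b at 0.07. Each of them stood between 0.61 and 0.81 in cKO replicate 2 and between -0.17 and 0.11 in the other arrays. Likeness over 4 arrays is a description of these values.

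**Figure D3:**
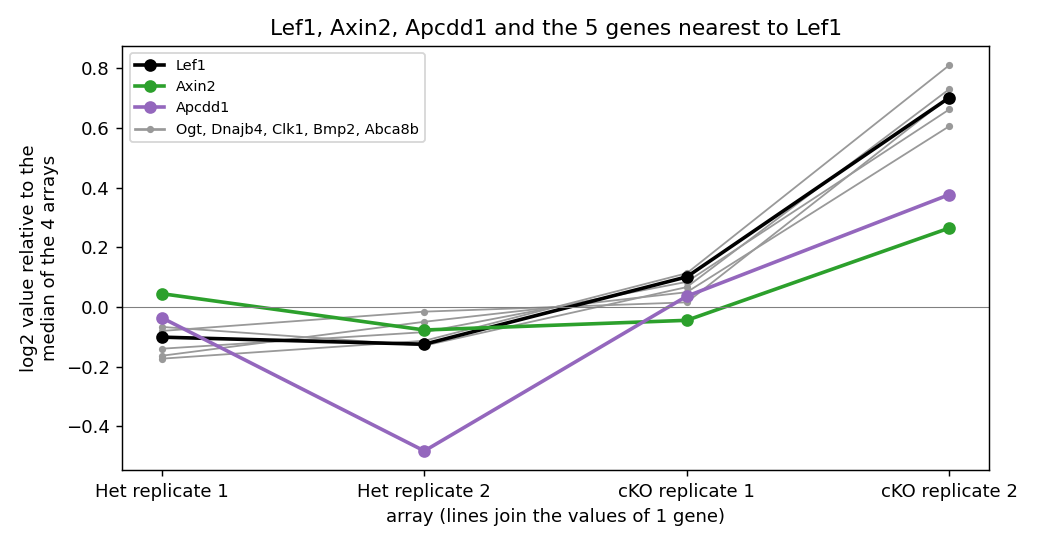
Log2 values relative to the median of the 4 arrays, with 1 line per gene: Lef1 in black, Axin2 in green, Apcdd1 in purple and the 5 genes nearest to Lef1 in grey. Lef1 and the grey genes stand near one another at each array and reach 0.61 to 0.81 in cKO replicate 2, whereas Apcdd1 is lowest in Het replicate 2 at -0.48.

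The other genes of the pathway were taken from 4 lists with 69 of 71 genes measured. Of these 69 genes, 0 passed limma's test over all genes and 5 had an unadjusted p under 0.05, with 26 higher and 43 lower in cKO by the sign of the difference. Over all genes, 10420 were higher and 9513 lower, which is the background for such counts here and below. In 7 genes both cKO arrays lay above both Het arrays and in 14 both lay below, to be read against 17.8% and 15.6% of all genes. The median difference was -0.02.

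Destruction complex and Dishevelled genes numbered 20, of which 0 passed in either direction, 2 were separated upward and 4 downward, with a median difference of -0.01. Dact1, a Dishevelled-binding regulator gene, stood at 0.57 and 0.05 in Het and at -0.08 and -0.05 in cKO, a difference of -0.38 ± 0.20, with Het replicate 1 far above the other 3 arrays as in Nkd2. Gsk3a, which encodes a kinase that phosphorylates beta-catenin, stood at 0.14 and 0.16 in Het and at -0.31 and -0.14 in cKO. Its difference was -0.38 ± 0.07 (limma, unadjusted p = 0.00966, adjusted p = 0.897), with arrays of a group closer together than the groups. Dvl3, a Dishevelled gene, differed by -0.27 ± 0.08 (limma, adjusted p = 0.936).

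Nuclear cofactors of beta-catenin had 0 of 19 measured genes passing, 0 separated upward and 3 downward, and a median difference of -0.03. Cby1 encodes Chibby, which binds beta-catenin and keeps it from the TCF factors, and which also serves at the base of cilia. It stood at 0.70 and 0.06 in Het and at -0.06 and -0.41 in cKO, with a difference of -0.62 ± 0.28 (limma, adjusted p = 0.958), the largest of the 4 lists. The corepressor exchange genes Tbl1x and Tbl1xr1 differed by -0.27 ± 0.21 and -0.24 ± 0.24, with overlapping groups and their lowest values in cKO replicate 2.

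The other catenins had 0 of 7 genes passing, 3 separated upward and 0 downward, with a median of -0.01. Ctnnd1, the gene of p120-catenin, which holds cadherins at the cell surface, stood at -0.11 and -0.07 in Het and at 0.07 and 0.17 in cKO, a difference of 0.21 ± 0.06 (limma, unadjusted p = 0.0256, adjusted p = 0.936). Jup, the gene of plakoglobin, the nearest relative of beta-catenin, differed by -0.22 ± 0.14 and Ctnna1, the gene of alpha-catenin, by -0.16 ± 0.23, both with overlapping groups.

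Other known beta-catenin targets went both ways but were more often lower, with 0 of 23 measured genes passing, 8 higher and 15 lower, and a median of -0.06. Of them 2 were separated upward and 7 downward, to be read against 17.8% and 15.6% of all genes. Those separated upward, Sp5 and Edar, differed by only 0.05 and 0.07. Cd44, the hyaluronan receptor gene, stood at 0.50 and 0.18 in Het and at -0.26 and -0.18 in cKO, a difference of -0.56 ± 0.13 (limma, unadjusted p = 0.0167, adjusted p = 0.934). The receptor gene Fzd7 differed by -0.28 ± 0.09 (adjusted p = 0.937, limma). Tnfrsf19, a TNF receptor family gene, differed by 0.25 ± 0.20 with overlapping groups.

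**Figure D4:**
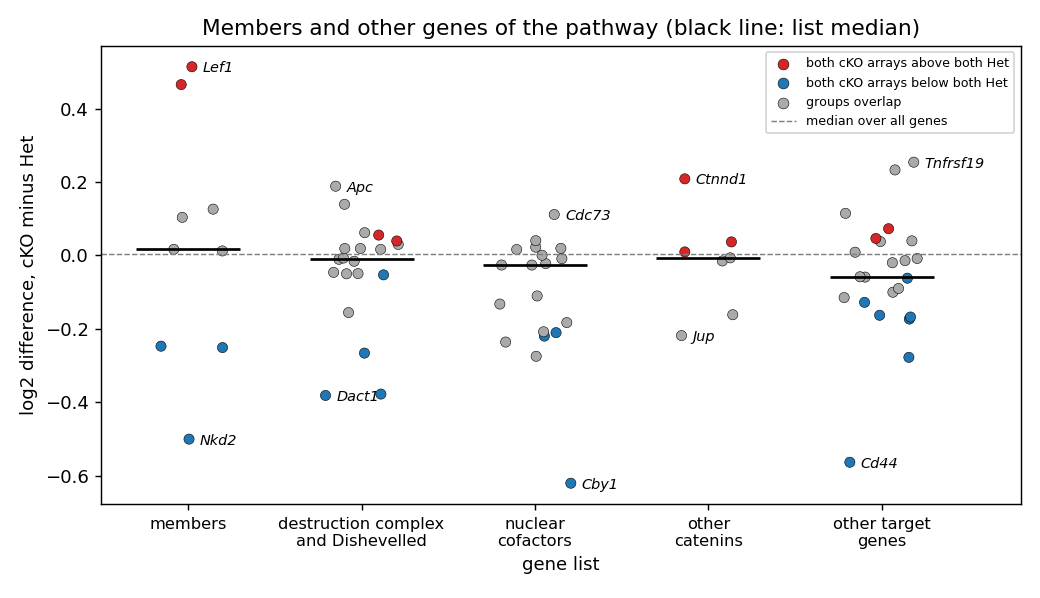
Log2 differences, cKO minus Het, of the 9 members and of the 69 measured genes of 4 other pathway lists, 1 point per gene; red and blue points are genes whose groups do not overlap, black lines the list medians and the dashed line the median over all genes. The list medians lie between -0.06 and 0.02, and the members reach 0.51 (Lef1) and -0.50 (Nkd2).

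LEF1 and TCF factors are also known from hair matrix keratinocytes, melanocytes and T cells, so the markers of these cells were set beside the members. Without expression levels, how far the sort on Sox2GFP and integrin alpha 9 removed such cells could not be judged. Keratinocyte and hair matrix markers had 14 of 15 genes measured, 4 higher and 10 lower, with medians of -0.03 and 0.08 in the Het arrays and of -0.01 and -0.00079 in the cKO arrays. Melanocyte markers had 8 of 8 measured, 2 higher and 6 lower, with medians of -0.09 and 0.18 in Het and of -0.04 and 0.04 in cKO. In Het replicate 2, Krt5 stood at 0.97, Krt15 at 0.78 and Mlana at 1.14, but Hoxc13 at -0.06 and Msx2 at -0.05. That array was also the highest in Tcf7l2, at 0.30, and the lowest in Apcdd1, at -0.48. T cell markers had 8 of 11 measured, 6 higher and 2 lower, with medians between -0.02 and 0.02 in all 4 arrays. In cKO replicate 2, where Lef1 stood at 0.70, the medians of these 3 lists were -0.00079, 0.04 and 0.02 in the order named. Dermal fibroblast markers had 10 of 10 measured, 2 higher and 8 lower, and a median of -0.14 in cKO replicate 2 against 0.02 to 0.11 in the other arrays. Their median difference was -0.26. Of these fibroblast markers 0 passed, while 2 were separated upward and 4 downward, to be read against 17.8% and 15.6% of all genes. Dermal papilla markers had 14 of 14 measured, 7 higher and 7 lower, with medians of 0.10 and -0.06 in Het and of -0.04 and 0.05 in cKO. Of them 0 passed, while 2 were separated upward and 3 downward, to be read against 17.8% and 15.6% of all genes. Their differences ran from -0.77 (Vcan) to 1.08 (Ndnf). The papilla markers with an unadjusted p under 0.05 (limma) were Alpl (-0.43), Rspo3 (-0.66) and Vcan. All 3 were separated downward, to be read against 5.28% of all genes with such a p. Schwann cell markers had 6 of 8 measured, 2 higher and 4 lower, with 0 separated upward and 3 downward and medians of 0.08 and 0.01 in Het and of -0.03 and -0.05 in cKO. Among these Schwann markers were Egr2 and Fabp7, whose groups lay furthest apart at their nearest arrays of all markers used. Egr2 stood at 0.48 and 0.69 in Het and at -0.48 and -1.05 in cKO. Fabp7 stood at 0.36 and 0.38 in Het and at -0.36 and -0.55 in cKO. Their differences were -1.35 ± 0.23 and -0.82 ± 0.08 (limma, adjusted p = 0.897 for each). Dermal sheath and smooth muscle markers had 8 of 8 measured, 3 higher and 5 lower, with a median difference of -0.03, and endothelial markers 8 of 8, 4 higher and 4 lower, with a median difference of 0.01. The part of other cells in the members' values was not tested.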

How the data were processed

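RNA from sorted dermal papilla cells was hybridised to 4 Affymetrix Mouse Gene ST arrays, 2 per group. The authors' deposited values were made with RMA (source: the submitters' processing notes), whose output is log2; the table does not state the base, and log2 is assumed for each fold. Not given in the sources used here: software version, genome build and how rows were centred. Every one of the 28853 probe sets had a median of 0 over its 4 values, within 1e-06, so a value gives a difference between arrays and no expression level. No filter on dim probe sets was therefore possible.

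Probe sets naming 1 gene in the platform annotation (21789) were averaged per gene, giving 19938 genes; each measured member had 1 probe set. The comparison of cKO with Het used limma 3.58.1 in R 4.3.3 (lmFit, eBayes, group as the only term, two-sided). P-values were adjusted over all genes by Benjamini-Hochberg and judged at 0.05. Residual degrees of freedom were 2, to which the prior added 1.52. The fit was run on simulated data with independent noise and planted changes, to check its mean estimates and its false calls. That check set no requirement on how many planted changes were called. Intervals are at 95%. Plots used matplotlib 3.10.9 (Python 3.11.15).

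The members and lists were chosen with earlier results of these data known. Named genes were the members, Sox2, the 3 largest differences of each of 4 pathway lists and the 5 genes nearest to Lef1. Xist and the Y-linked genes were named because earlier results had shown them. Alternatives covered scaling between arrays, the prior, moderation, a replicate block, each array left out, a filter on SD and the handling of probe sets. Promoter windows came from RefSeq (GRCm38.p6).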

Additional observations from a re-analysis of the deposited data

How the results depend on the processing

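Of 12 alternatives, 6 could move a member's difference (scaling and arrays left out); of their 54 values 48 kept their direction. The other 6 leave the difference as it is and bear only on its p. No member passed under any of the 12. The smallest adjusted p of a member was 0.168 (Lef1) with the filter on SD and 0.514 (Tcf7l1, replicate block) otherwise (limma). The 6 reversals came from leaving out 1 array: Ctnnb1 ran from -0.18 to 0.22, Axin1 from -0.081 to 0.11, Axin2 from -0.028 to 0.28 and Nkd1 from -0.13 to 0.34. Members higher in all cKO arrays ran from 2 to 5 and those lower from 3 to 5 with 1 array left out, where such separation is also more frequent over all genes (30.4% to 38.6% in each direction). Their median difference ran from -0.13 to 0.15, and with quantile normalization it was 0.10; the cause was not tested. With only the genes at or above the median SD over the 4 arrays, limma called 116 of 9969 genes, none of them a member. That SD includes the difference between the groups, so the filter is not independent of it, and the prior then held 66.5 degrees of freedom in place of 1.52. With the replicate number as a replicate block, 0 genes were called and 1625 had an unadjusted p under 0.05, Tcf7l1 and Tcf7l2 among them. The replicate numbers are shared labels only: the deviations of same-numbered arrays had a correlation of 0.30 over genes, which are not independent. Without expression levels, neither detection nor signal over background could be judged for any member.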
